A study of Homo sapiens with 70 samples.

Results

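The genes described here encode the plasma proteins of blood clotting, clot lysis and complement that the liver secretes, with a few membrane partners of the clotting proteins. They were the 47 symbols of a fixed list, taken at the representative transcript that the authors marked, and all 47 were found among the 20090 genes of the tables. Of them, 26 belong to coagulation and fibrinolysis and 21 to complement. Cells of Hep3B and of Huh7, established lines from human liver cancers, were treated for 24 h with the vehicle DMSO, with 5 µM GW3965, with 2 µM sorafenib or with both drugs, for which the labels repeat no doses. GW3965 activates the liver X receptors (LXR), and sorafenib is an inhibitor of RAF and several receptor kinases. There were 70 poly-A RNA libraries. Every Hep3B group had 9, as had the Huh7 groups labelled sorafenib and combination, while DMSO and GW3965 had 8 each in Huh7.

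Coagulation is a cascade of proteases, most of them made in hepatocytes as inactive precursors, that starts when tissue factor meets factor VII and ends when thrombin turns fibrinogen into fibrin. Antithrombin, heparin cofactor 2, tissue factor pathway inhibitor and the protein C system restrain the cascade, and plasmin dissolves the clot. Complement is a parallel cascade in which the classical, lectin and alternative pathways converge on cleavage of C3 and then assemble a membrane attack complex from C5 to C9. Hepatocytes supply most of both systems to plasma, and many of the members are raised or lowered in the acute phase response.

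The values came from 6 tables of edgeR comparisons that the authors deposited, each drug group against the DMSO group of its own line. Library depth and the spread between replicates are unknown, because per-library values were not analysed here. Nothing in the labels says that the libraries of a group were separate cultures, so a p-value here reflects variation among these libraries that could be technical only. The genes checking the labels went against those of the single-drug Huh7 groups. In the authors' deposited tables, the LXR targets ABCG1, ABCA1 and SREBF1 were higher, 3 of 3, with GW3965 in Hep3B and in the Huh7 group labelled sorafenib, against 1 of 3 in the Huh7 group labelled GW3965. The ERK output genes DUSP6, SPRY4 and EGR1 were lower, 3 of 3, with sorafenib in Hep3B and in the Huh7 group labelled GW3965, and edgeR called 0 of 3 in the Huh7 group labelled sorafenib, in the authors' deposited tables. Both groups are therefore called by their labels throughout, and no direction is assigned to a drug alone in Huh7.

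The cell type was checked on its defining genes. All 9 hepatocyte markers (ALB, AFP, APOA1, APOB, TTR, SERPINA1, HNF4A, TF and AHSG) reached a mean of 2 CPM (read counts scaled to library size) in each of the authors' deposited tables, and their summed mean level lay between 15524 and 17802 CPM in the Hep3B tables and between 15633 and 20364 CPM in the Huh7 tables. None of the 4 endothelial or 3 platelet markers present in the authors' deposited tables reached 2 CPM in any of them, and their summed levels stayed under 2 CPM, although some of them were called. Of the endothelial ones, 2 were higher and 1 lower with both drugs in Huh7, and CDH5 was also higher in the Huh7 group labelled sorafenib (1.62), in the authors' deposited tables. Of the platelet ones, ITGA2B was higher in Hep3B with sorafenib (1.59) and with both drugs (1.62), in the authors' deposited tables. The part of these genes in the results was not tested. Of 5 macrophage and leukocyte markers, 1 or 2 reached 2 CPM in a table, with summed levels of 4.69 to 17.6 CPM in the authors' deposited tables. Stellate cell markers numbered 2 of 5 at 2 CPM, with sums of 12.3 to 27.3 CPM, and cholangiocyte markers 3 or 4 of 4, with sums of 239 to 512 CPM, in the authors' deposited tables.

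A member is called here where the authors' FDR was under 0.05. In Hep3B, GW3965 raised 3 members and lowered 7 of 47, against a background of 6.79% of all genes called (4.51% higher, 2.28% lower) in the authors' deposited table. The higher ones were C1R, F10 and TFPI, and the lower ones were PROZ, FGA, FGG, SERPIND1, SERPINF2, CFI and C4BPB. Sorafenib raised 16 Hep3B members and lowered 11 in the authors' deposited table, where 34.7% of all genes were called (17.3% higher, 17.4% lower). With both drugs, 4 Hep3B members rose and 28 fell, in an authors' deposited table with 49.6% of all genes called (26.0% higher, 23.6% lower). For the Huh7 group labelled GW3965, 22 members were higher and 5 lower, with 20.4% of all genes called (9.13% higher, 11.3% lower) in the authors' deposited table. In the group labelled sorafenib, 1 member was higher and 6 were lower, with 2.05% of all genes called (1.25% higher, 0.796% lower) in the authors' deposited table. The lower ones were FGA, FGB, FGG, F13B, SERPIND1 and MASP1, so the fibrin-forming genes made up 4 of the 6, and the higher one was C3. Both drugs raised 12 Huh7 members and lowered 18, in an authors' deposited table with 41.6% of all genes called (24.3% higher, 17.3% lower). The 12 include C4A and C4B, which hold 1 measurement between them.

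**Figure D1:**
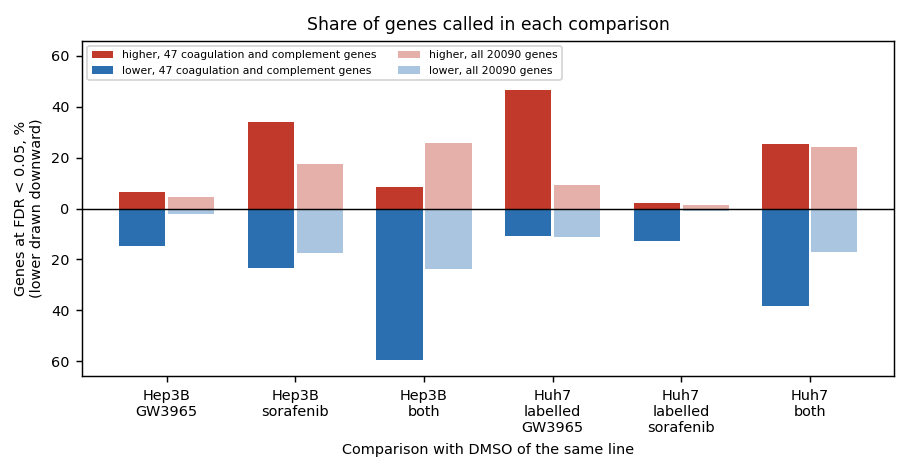
Bars give the percentage of genes at FDR under 0.05 in each of the 6 comparisons with DMSO, higher drawn upward and lower drawn downward, in dark colours for the 47 members and in pale colours for all 20090 genes. The dark downward bar is longest for Hep3B with both drugs (28 of 47 lower) and the dark upward bar for the Huh7 group labelled GW3965 (22 of 47 higher).

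The members were also better expressed than the average gene, and 32 to 36 of 47 reached 2 CPM in a table. Among all Hep3B genes at 2 CPM or more, 11.2% were called with GW3965 (7.40% higher, 3.82% lower), 51.5% with sorafenib (23.6% and 27.9%) and 72.1% with both drugs (36.7% and 35.4%), in the authors' deposited tables. For the Huh7 groups labelled GW3965, sorafenib and both, the shares were 31.4% (13.6% higher, 17.8% lower), 3.32% (2.00% and 1.32%) and 61.7% (35.5% and 26.1%), in the authors' deposited tables. Of the 33 members at 2 CPM or more in Hep3B with both drugs, 24 were called, 4 higher and 20 lower in the authors' deposited table. That mean covers drug and DMSO libraries, so the response itself can decide which members are counted. SERPINC1 (0.59 CPM with DMSO) was counted through its rise, and MBL2 (2.3 CPM with DMSO) was left out through its fall. Median log2 fold changes of the 47 members were -0.10, 0.09 and -0.44 for Hep3B with GW3965, sorafenib and both, beside -0.02, 0.09 and -0.06 for all genes, in the authors' deposited tables. For the Huh7 groups labelled GW3965, sorafenib and both, the member medians were 0.27, -0.06 and -0.05, beside -0.07, 0.0061 and 0.16 for all genes, in the authors' deposited tables. These medians include genes at the floor, and 0.09 for Hep3B with sorafenib is also the value of F9, nonzero in 1 library. At 2 CPM or more, the Hep3B medians were -0.07, 0.28 and -0.40 for members, beside 0.0032, -0.03 and 0.01 for all genes. In Huh7 they were 0.38, -0.06 and -0.21 for members, beside -0.04, -0.03 and 0.07 for all genes, in the authors' deposited tables. In these bulk samples, fewer cells making a transcript and less of it per cell cannot be told apart. Under both drugs, 7 of 9 hepatocyte markers were lower in Hep3B (median log2 fold change -0.68) and 6 of 9 in Huh7 (-0.64), and 0 were higher, in the authors' deposited tables. The medians of all 47 members beside these were -0.44 and -0.05, and those of members at 2 CPM or more -0.40 and -0.21. In Huh7, 12 members were higher and 18 lower. The part of the markers in the result was not tested.

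**Figure D2:**
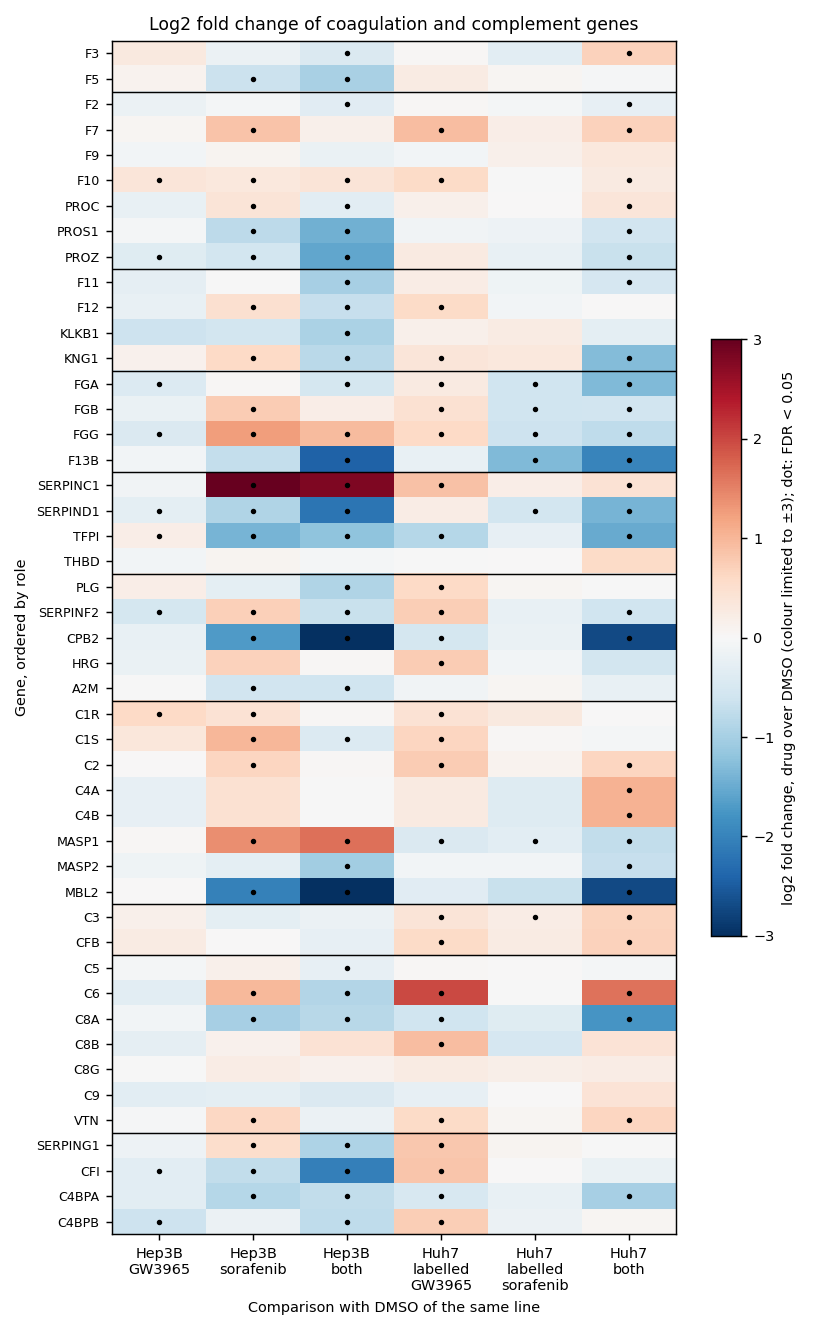
Colour gives the log2 fold change over DMSO (limited to 3 on either side) for the 47 members in rows, grouped by role, and the 6 comparisons in columns, and a dot marks FDR under 0.05. CPB2, MBL2, SERPIND1 and F13B are blue in both columns of combined treatment, and SERPINC1 is dark red for Hep3B with sorafenib and with both drugs.

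Before treatment, the lines expressed these genes very differently. A DMSO level was computed for each line from the mean log2 CPM and fold change of the authors' deposited tables. Over the 3 tables of a line, it varied by at most 0.16 (log2) in Hep3B and 0.07 in Huh7 for members at 2 CPM or more. Of the 47 members, 30 reached 2 CPM under DMSO in both lines, 5 in Huh7 only, 2 in Hep3B only and 10 in neither. Members held 0.612% of the summed level of representative transcripts in Hep3B and 1.19% in Huh7. These line differences are a description, since no comparison of DMSO groups across lines was among the authors' deposited tables.

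Per kilobase of transcript, fibrinogen led in Huh7. The beta chain FGB stood at 608 CPM per kb, the alpha chain FGA at 439.8 and the gamma chain FGG at 358, as computed from the authors' deposited tables, followed by vitronectin (VTN) at 274. In Hep3B the order began with C3, the hub of complement, at 194 CPM per kb, then VTN at 134, FGG at 100.04 and SERPINF2, the antiplasmin gene, at 83.3, from the authors' deposited tables. Not per length, C3 stood at 1018 CPM in Hep3B and 56.2 CPM in Huh7, while FGB stood at 29.7 and 1200.5 CPM, a level 40.4 times as high in Huh7, from the authors' deposited tables. The complement inhibitor CFI was 18.4 times as high in Hep3B (48.8 against 2.65 CPM), and plasminogen (PLG) was 44.1 times as high in Huh7 (37.4 against 0.847 CPM), from the authors' deposited tables. F9, C9 and THBD had a nonzero count in 1, 9 and 10 of the 70 libraries in the authors' deposited tables, so no fold is given for them. A transcript length was found for 43 members, and SERPING1, C1R, A2M and TFPI are without one.

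**Figure D3:**
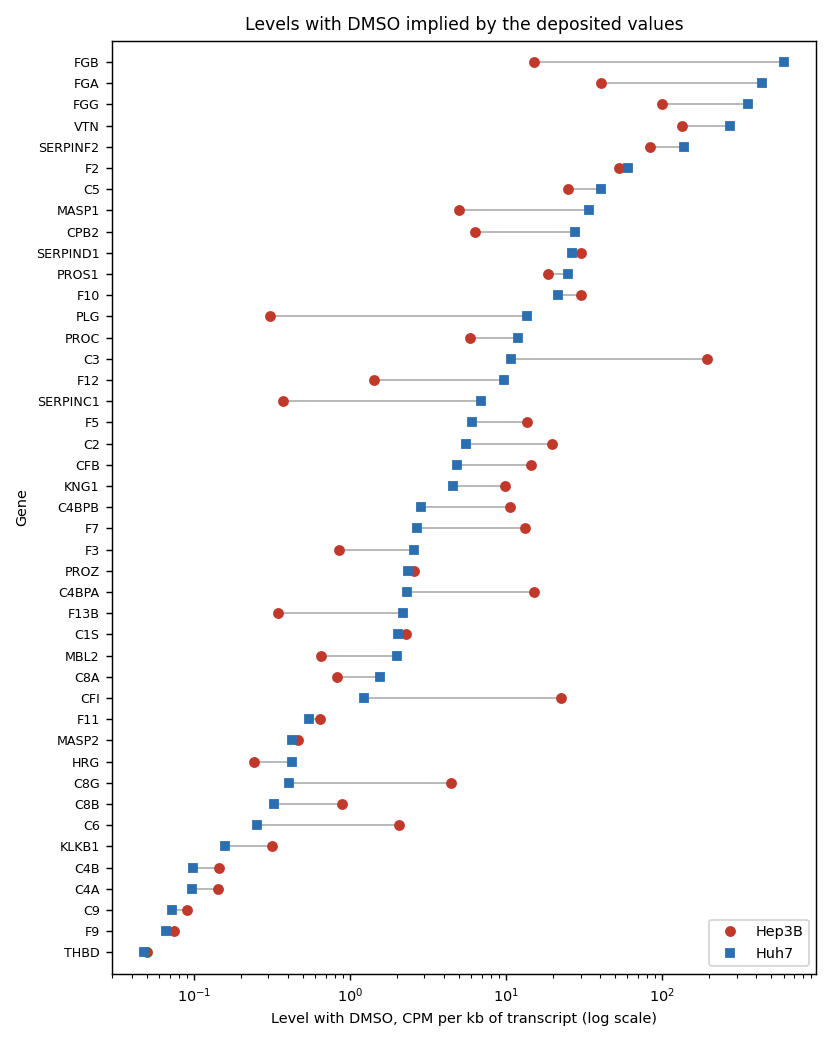
Points give the DMSO level of the 43 members with a transcript length in CPM per kb on a log axis, circles for Hep3B and squares for Huh7, ordered by the Huh7 level. FGB, PLG and SERPINC1 lie far to the right in Huh7, and C3, CFI and C8G far to the right in Hep3B.

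Clotting starts with tissue factor (F3), a membrane protein, and is amplified by the cofactor factor V (F5). F5 fell in Hep3B with sorafenib, from 97.2 to 62.6 CPM (log2 fold change -0.63, edgeR FDR = 2.78e-04), and with both drugs, from 96.8 to 49.1 CPM (-0.98, edgeR FDR = 4.04e-13), in the authors' deposited tables. With GW3965 its log2 fold change was 0.10, and in Huh7 the values were 0.24, 0.06 and -0.03 for the groups labelled GW3965, sorafenib and both, none of them called in the authors' deposited tables. F3 moved in opposite directions under both drugs. It fell in Hep3B, where it was near 2 CPM (log2 fold change -0.44, edgeR FDR = 0.0167), and rose in Huh7 from 5.73 to 9.33 CPM (0.70, edgeR FDR = 1.54e-05), in the authors' deposited tables. In the remaining comparisons it stood at 0.29 with GW3965 and -0.17 with sorafenib in Hep3B, and at 0.03 and -0.32 in the Huh7 groups labelled GW3965 and sorafenib, not called in the authors' deposited tables.

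The vitamin K-dependent proteins carry a carboxylated domain that binds calcium and membrane. They include the proteases prothrombin (F2) and factors VII, IX and X, the anticoagulant protease protein C (PROC), its cofactor protein S (PROS1) and protein Z (PROZ). Both anticoagulant cofactors fell with both drugs in each line. PROS1 went from 67.4 to 24.9 CPM in Hep3B (log2 fold change -1.44, edgeR FDR = 2.22e-59) and from 87.4 to 58.4 CPM in Huh7 (-0.58, edgeR FDR = 1.14e-06), in the authors' deposited tables. It also fell with sorafenib in Hep3B (-0.78, edgeR FDR = 2.25e-11), and stood at -0.07 with GW3965, -0.09 in the Huh7 group labelled GW3965 and -0.14 in the one labelled sorafenib, not called in the authors' deposited tables. PROZ fell in all 3 Hep3B comparisons, by log2 fold changes of -0.36 with GW3965, -0.55 with sorafenib and -1.56 with both drugs (edgeR FDR = 2.22e-24 for the last), in the authors' deposited tables. In Huh7 it fell with both drugs (-0.68, edgeR FDR = 0.00717), and the groups labelled GW3965 and sorafenib stood at 0.26 and -0.22, not called in the authors' deposited tables.

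F10, which forms the enzyme that activates prothrombin, was higher in 5 of the 6 comparisons. Its log2 fold changes were 0.37, 0.32 and 0.40 in Hep3B with GW3965, sorafenib and both, and 0.57, -0.02 and 0.26 in the Huh7 groups labelled GW3965, sorafenib and both, of which only -0.02 was not called in the authors' deposited tables. F7, the partner of tissue factor, rose from 41.9 to 76.1 CPM with sorafenib in Hep3B (log2 fold change 0.86, edgeR FDR = 8.34e-12) in the authors' deposited table. With GW3965 and with both drugs the Hep3B values of F7 were 0.06 and 0.16, not called in the authors' deposited tables. The Huh7 groups labelled GW3965 and both were higher for F7, at 0.93 (edgeR FDR = 0.0047) and 0.70 (edgeR FDR = 2.14e-04), and the group labelled sorafenib stood at 0.20, not called, in the authors' deposited tables. F2 was lower with both drugs in each line (-0.33 in Hep3B and -0.24 in Huh7) and was called in no other of the authors' deposited tables. PROC rose with sorafenib in Hep3B (0.39), fell there with both drugs (-0.33) and rose with both drugs in Huh7 (0.37), in the authors' deposited tables.

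The contact pathway starts clotting on charged surfaces through factors XII and XI, plasma prekallikrein (KLKB1) and its carrier high-molecular-weight kininogen, the product of KNG1. All 4 genes fell with both drugs in Hep3B. KNG1 went from 37.8 to 21.6 CPM there (log2 fold change -0.81, edgeR FDR = 9.62e-06) and from 17.02 to 6.92 CPM in Huh7 (-1.30, edgeR FDR = 3.59e-16), in the authors' deposited tables. It rose with sorafenib in Hep3B (0.59, edgeR FDR = 4.86e-04) and in the Huh7 group labelled GW3965 (0.37, edgeR FDR = 0.0268), and stood at 0.13 with GW3965 in Hep3B and 0.31 in the Huh7 group labelled sorafenib, not called in the authors' deposited tables. KNG1 thus changed sign between a single treatment and the combination in each line. F12 was higher with sorafenib (0.48) and lower with both drugs (-0.69) in Hep3B, higher in the Huh7 group labelled GW3965 (0.58), and not called at -0.23, -0.07 and 0.01 with GW3965 in Hep3B and in the Huh7 groups labelled sorafenib and both, in the authors' deposited tables. F11 and KLKB1 stayed under 2 CPM in both lines, and their log2 fold changes with both drugs in Hep3B were -0.99 and -0.96, both called in the authors' deposited table. In Huh7, F11 was lower with both drugs (-0.51, edgeR FDR = 0.0435) and KLKB1 was not called (-0.30) in the authors' deposited tables.

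Fibrinogen is assembled from the chains encoded by FGA, FGB and FGG, which lie next to each other on chromosome 4 in RefSeq's gene order, and its genes are textbook targets of interleukin-6 signalling through STAT3 and C/EBP factors. Because these chains moved together in some comparisons and apart in others, the 250 bases upstream of each start are shown from RefSeq on GRCh38.p14, 5′ to 3′ on the gene's own strand. Capitals mark matches to the C/EBP motif TTGCNNAA or the STAT3 motif TTCNNNGAA on either strand. FGA lies at chr4:154590743-154590992 on the minus strand, FGB at chr4:154562730-154562979 on the plus strand (the most upstream of 2 starts), and FGG at chr4:154612657-154612906 on the minus strand.
FGA: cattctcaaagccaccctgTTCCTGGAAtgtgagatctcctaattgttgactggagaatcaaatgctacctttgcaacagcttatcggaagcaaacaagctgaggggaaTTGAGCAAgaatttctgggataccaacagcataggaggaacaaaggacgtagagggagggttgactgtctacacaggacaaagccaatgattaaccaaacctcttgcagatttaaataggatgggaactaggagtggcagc
FGB: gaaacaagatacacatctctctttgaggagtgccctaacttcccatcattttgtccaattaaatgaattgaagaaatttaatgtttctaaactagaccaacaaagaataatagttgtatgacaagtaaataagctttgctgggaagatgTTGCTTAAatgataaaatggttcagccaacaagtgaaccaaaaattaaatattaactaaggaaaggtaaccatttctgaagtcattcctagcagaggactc
FGG: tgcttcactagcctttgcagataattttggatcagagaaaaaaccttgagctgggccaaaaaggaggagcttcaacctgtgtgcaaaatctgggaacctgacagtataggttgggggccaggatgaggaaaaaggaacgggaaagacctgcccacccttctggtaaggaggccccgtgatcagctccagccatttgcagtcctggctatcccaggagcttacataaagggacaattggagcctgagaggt
The FGA window held a STAT3 match that begins 231 bases before the start and a C/EBP match at 141 bases, the FGB window a C/EBP match at 101 bases, and the FGG window held neither. No printed matches overlap, and a match is a string of letters, not a shown binding site.

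In Huh7 the chains moved in the same direction in each comparison, though FGA fell further than FGB and FGG with both drugs. Their summed level, computed from the authors' deposited tables, was 1.35 times the DMSO level in the group labelled GW3965, 0.657 times in the group labelled sorafenib and 0.558 times with both drugs. FGA went from 965 to 385 CPM with both drugs (log2 fold change -1.33, edgeR FDR = 6.97e-49), FGB from 1170.05 to 787 CPM (-0.57, edgeR FDR = 4.35e-10) and FGG from 613 to 362 CPM (-0.76, edgeR FDR = 7.25e-19), in the authors' deposited table. The group labelled sorafenib gave -0.61, -0.60 and -0.62 for FGA, FGB and FGG, and the group labelled GW3965 gave 0.27, 0.46 and 0.60, all called in the authors' deposited tables.

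In Hep3B the chains came apart. With sorafenib, FGG rose from 179.5 to 426 CPM (log2 fold change 1.25, edgeR FDR = 2.34e-12) and FGB from 30.3 to 51.5 CPM (0.77, edgeR FDR = 2.42e-05), while FGA stood at 0.03 (edgeR FDR = 1), in the authors' deposited table. Under the combination FGG was higher (0.96, edgeR FDR = 3.80e-04), FGA lower (-0.53, edgeR FDR = 0.00328) and FGB not called (0.21), in the authors' deposited table. GW3965 lowered FGA (-0.42) and FGG (-0.44), with FGB at -0.20, not called, in the authors' deposited table. FGG was the only member called in all 6 comparisons, 3 times higher and 3 times lower. F13B, the carrier subunit of the factor XIII that crosslinks fibrin, fell strongly with both drugs. It went from 4.77 to 1.20 CPM in Huh7 (log2 fold change -1.99, edgeR FDR = 2.03e-28) and, under 1 CPM throughout, showed -2.42 in Hep3B (edgeR FDR = 6.98e-11), in the authors' deposited tables. F13B was also lower in the Huh7 group labelled sorafenib (-1.32, edgeR FDR = 7.35e-16), and was not called at -0.08 and -0.72 with GW3965 and sorafenib in Hep3B or at -0.21 in the Huh7 group labelled GW3965, in the authors' deposited tables.

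The inhibitors of coagulation took opposite courses. Antithrombin (SERPINC1), which inactivates thrombin and factor Xa, had the highest fold change of any member. Its level in Hep3B went from 0.552 to 4.68 CPM with sorafenib (log2 fold change 3.09, approximate 95% interval 2.49 to 3.68, edgeR FDR = 9.61e-23) and from 0.590 to 4.08 CPM with both drugs (2.79, edgeR FDR = 5.80e-19), in the authors' deposited tables. GW3965 alone gave -0.10, not called, in the authors' deposited table. In Huh7, where the gene started at 10.97 CPM, it was higher in the groups labelled GW3965 (0.89, edgeR FDR = 9.03e-04) and both (0.44, edgeR FDR = 0.0317) and not called in the group labelled sorafenib (0.20), in the authors' deposited tables. Heparin cofactor 2 (SERPIND1), a second thrombin inhibitor, went the other way and was lower in 5 of the 6 comparisons. It went from 74.3 to 16.3 CPM with both drugs in Hep3B (log2 fold change -2.19, approximate 95% interval -2.47 to -1.91, edgeR FDR = 8.78e-52) and from 62.9 to 24.01 CPM in Huh7 (-1.39, edgeR FDR = 1.44e-43), in the authors' deposited tables. SERPIND1 further showed -0.30 with GW3965, -0.91 with sorafenib in Hep3B and -0.54 in the Huh7 group labelled sorafenib, all called, and 0.22 in the group labelled GW3965, not called, in the authors' deposited tables.

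Tissue factor pathway inhibitor (TFPI), which blocks factor VIIa with tissue factor, was lower with both drugs in each line. It went from 50.1 to 21.8 CPM in Hep3B (log2 fold change -1.20, edgeR FDR = 2.93e-20) and from 44.7 to 15.7 CPM in Huh7 (-1.51, edgeR FDR = 6.05e-18), in the authors' deposited tables. Sorafenib lowered it in Hep3B (-1.40, edgeR FDR = 4.47e-32), GW3965 raised it slightly (0.20, edgeR FDR = 0.0437), and the Huh7 groups labelled GW3965 and sorafenib stood at -0.85 (called) and -0.24 (not called), in the authors' deposited tables. THBD, the thrombin receptor of the protein C system, was at the floor of the tables.

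Among the genes of clot lysis, CPB2 fell furthest. It encodes a plasma carboxypeptidase that protects fibrin by removing the residues to which plasminogen binds. CPB2 went from 10.9 to 1.35 CPM with both drugs in Hep3B (log2 fold change -3.01, approximate 95% interval -3.35 to -2.68, edgeR FDR = 2.93e-69) and to 7.19 CPM in Huh7, from a DMSO level of 47.5 CPM over the 3 tables (-2.71, interval -3.22 to -2.20, edgeR FDR = 9.27e-24), in the authors' deposited tables. Sorafenib lowered it in Hep3B (-1.69, edgeR FDR = 3.68e-14), the Huh7 group labelled GW3965 was lower (-0.54, edgeR FDR = 0.00208), and the values with GW3965 in Hep3B (-0.21) and in the Huh7 group labelled sorafenib (-0.20) were not called, in the authors' deposited tables. As the member with the largest fall in both lines beside MBL2, its upstream window at chr13:46105034-46105283 (GRCh38.p14, minus strand, RefSeq) is shown with the same capitals.
CPB2: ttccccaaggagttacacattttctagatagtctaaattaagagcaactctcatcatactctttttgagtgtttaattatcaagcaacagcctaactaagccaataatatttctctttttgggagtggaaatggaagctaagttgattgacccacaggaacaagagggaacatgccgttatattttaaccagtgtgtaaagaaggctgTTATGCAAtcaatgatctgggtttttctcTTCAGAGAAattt
It held a C/EBP match beginning 42 bases and a STAT3 match beginning 13 bases before the start.

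Antiplasmin (SERPINF2), the main inhibitor of plasmin, changed sign between single treatment and combination. In Hep3B it was lower with GW3965 (-0.52), higher with sorafenib (0.71, from 192 to 314 CPM) and lower with both drugs (-0.66, edgeR FDR = 0.00889), in the authors' deposited tables. In Huh7 it was higher in the group labelled GW3965 (0.75), not called in the group labelled sorafenib (-0.22) and lower with both drugs (-0.59, edgeR FDR = 6.74e-08), in the authors' deposited tables. PLG, the precursor of plasmin, was lower with both drugs in Hep3B (-0.89, edgeR FDR = 0.0122), where it stayed under 1 CPM, and stood at 0.20 and -0.30 with GW3965 and sorafenib, not called, in the authors' deposited tables. At its higher Huh7 level PLG rose in the group labelled GW3965 from 38.2 to 57.9 CPM (0.60, edgeR FDR = 2.33e-04) and stood at 0.06 and -0.002 in the groups labelled sorafenib and both, not called, in the authors' deposited tables. The protease inhibitor A2M fell in Hep3B with sorafenib (-0.58) and both drugs (-0.60), and the values -0.0046 with GW3965 in Hep3B and -0.11, 0.05 and -0.23 in the Huh7 groups labelled GW3965, sorafenib and both were not called, in the authors' deposited tables. HRG, a histidine-rich plasminogen-binding protein under 2 CPM, was called only in the Huh7 group labelled GW3965 (0.76) in the authors' deposited tables.

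**Figure D4:**
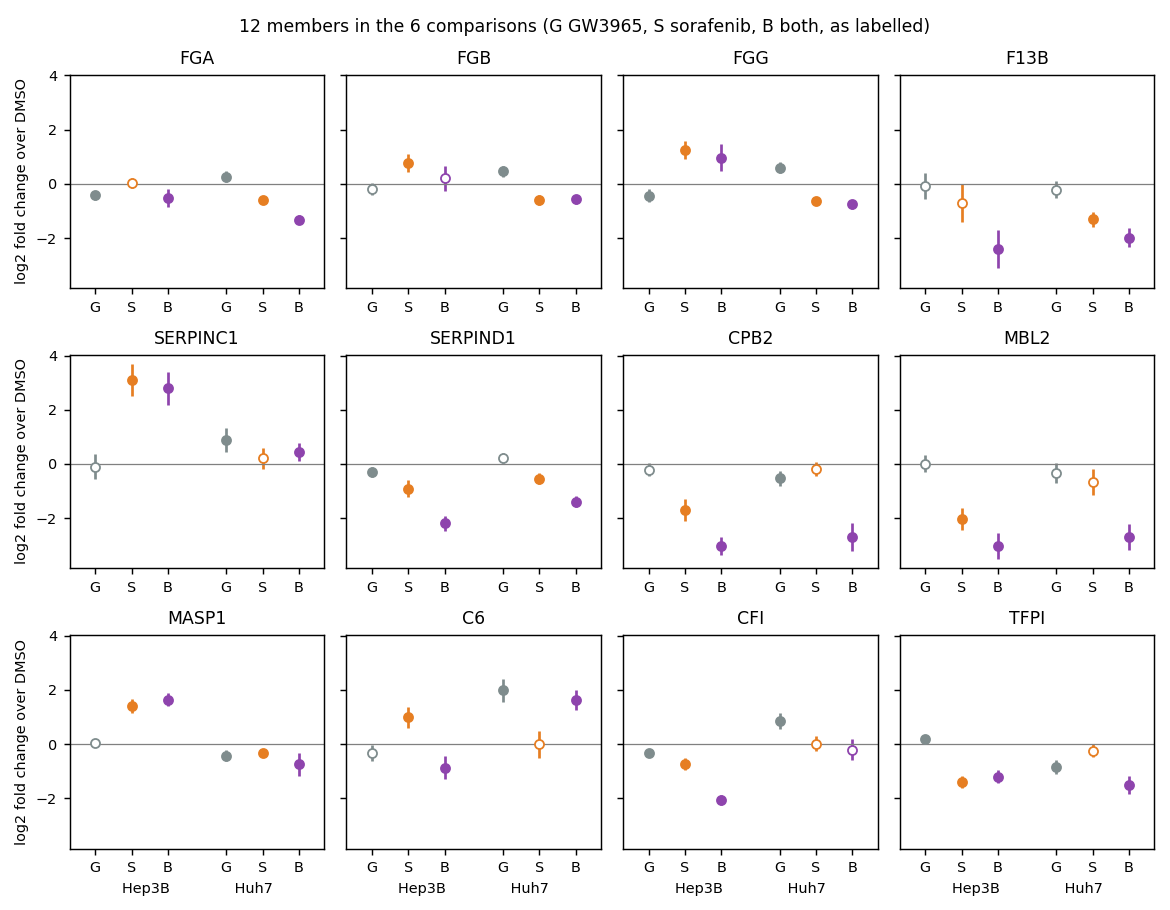
Each panel gives the log2 fold change over DMSO of 1 gene in the 6 comparisons (G GW3965, S sorafenib, B both, as labelled), with the approximate 95% interval from the deposited p-value as a bar and a filled point at FDR under 0.05. CPB2, MBL2, SERPIND1 and F13B are lowest with both drugs in each line, and C6, FGG and MASP1 lie on opposite sides of 0 in the lines with both drugs.

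Complement is triggered in the lectin pathway by mannose-binding lectin (MBL2), which recruits the proteases MASP1 and MASP2, and in the classical pathway by C1, whose proteases are C1R and C1S. MBL2 fell with both drugs from 2.33 to 0.286 CPM in Hep3B (log2 fold change -3.02, approximate 95% interval -3.50 to -2.55, edgeR FDR = 1.68e-45) and from 7.18 to 1.10 CPM in Huh7 (-2.71, interval -3.19 to -2.23, edgeR FDR = 2.59e-27), in the authors' deposited tables. With sorafenib in Hep3B it fell by a log2 fold change of -2.02 (edgeR FDR = 4.50e-20), and 0.01 with GW3965 and -0.34 and -0.66 in the Huh7 groups labelled GW3965 and sorafenib were not called, in the authors' deposited tables. Its window at chr10:52772785-52773034 (GRCh38.p14, minus strand, the most upstream of 2 RefSeq starts) is shown because its fall was close to that of CPB2 in each line.
MBL2: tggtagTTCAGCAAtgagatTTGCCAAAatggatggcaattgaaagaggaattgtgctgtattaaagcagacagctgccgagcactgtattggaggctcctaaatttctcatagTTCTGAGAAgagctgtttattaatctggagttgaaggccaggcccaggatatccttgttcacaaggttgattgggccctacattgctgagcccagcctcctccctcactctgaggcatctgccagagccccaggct
Here C/EBP matches begin 244 and 230 bases and a STAT3 match 136 bases before the start.

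MASP1 had opposite responses in the lines. It rose in Hep3B with sorafenib (1.41, edgeR FDR = 2.52e-22) and with both drugs, from 20.6 to 64.1 CPM (1.64, edgeR FDR = 8.13e-39), and stood at 0.04 with GW3965, not called, in the authors' deposited tables. In Huh7, from a DMSO level of 137 CPM, it was lower in the groups labelled GW3965 (-0.42), sorafenib (-0.32) and both (-0.74, edgeR FDR = 0.00199), in the authors' deposited tables. MASP2, near 1 CPM, was lower with both drugs in each line (-1.05 and -0.69) and called in no other of the authors' deposited tables. C1S rose with sorafenib in Hep3B from 6.88 to 13.8 CPM (1.01, edgeR FDR = 1.14e-08), fell with both drugs (-0.40, edgeR FDR = 0.0363) and stood at 0.34 with GW3965, not called, in the authors' deposited tables. For C1S the Huh7 group labelled GW3965 was higher (0.64, edgeR FDR = 1.64e-08), and the groups labelled sorafenib (0.03) and both (-0.06) were not called, in the authors' deposited tables. Its neighbour C1R rose with each drug alone in Hep3B (0.59 with GW3965 and 0.42 with sorafenib) and in the Huh7 group labelled GW3965 (0.43), and stood at 0.04 and 0.00031 with both drugs in Hep3B and Huh7, not called, in the authors' deposited tables.

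C2, the protease of the classical C3 convertase, rose with sorafenib in Hep3B (0.64, edgeR FDR = 4.36e-05) and in the Huh7 groups labelled GW3965 (0.76, edgeR FDR = 1.12e-06) and both (0.65, edgeR FDR = 8.74e-06), in the authors' deposited tables. Its remaining values, 0.01 and 0.04 with GW3965 and both drugs in Hep3B and 0.11 in the Huh7 group labelled sorafenib, were not called in the authors' deposited tables. C4A and C4B are near-identical copies whose deposited values differed by at most 8.2e-06, so they are 1 measurement of uncertain origin. Near or under 1 CPM throughout, that measurement was called only with both drugs in Huh7 (1.04, edgeR FDR = 0.00278) in the authors' deposited tables.

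C3 and factor B (CFB), which together form the alternative pathway convertase, rose in Huh7 and were called in no Hep3B comparison. C3 went from 55.1 to 87.3 CPM with both drugs in Huh7 (log2 fold change 0.66, edgeR FDR = 2.03e-16) and was also higher in the groups labelled GW3965 (0.40) and sorafenib (0.22), in the authors' deposited tables. CFB was higher in the Huh7 groups labelled GW3965 (0.57, edgeR FDR = 1.31e-05) and both (0.70, edgeR FDR = 1.58e-06) and not called in the group labelled sorafenib (0.24), in the authors' deposited tables. The Hep3B values with GW3965, sorafenib and both were 0.16, -0.30 and -0.18 for C3 and 0.26, 0.01 and -0.24 for CFB in the authors' deposited tables.

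The terminal components form the pore. C6, the first component to bind C5b, showed the largest rise of the members in Huh7 and a fall with both drugs in Hep3B. In the Huh7 group labelled GW3965 it went from 0.921 to 3.63 CPM (log2 fold change 1.98, edgeR FDR = 2.11e-16), and with both drugs from 0.850 to 2.63 CPM (1.63, edgeR FDR = 1.10e-15), in the authors' deposited tables. In Hep3B, C6 went from 7.39 to 14.6 CPM with sorafenib (0.98, edgeR FDR = 5.64e-06) and from 7.41 to 4.05 CPM with both drugs (-0.87, edgeR FDR = 1.27e-04), and stood at -0.32 with GW3965, not called, as did -0.01 in the Huh7 group labelled sorafenib, in the authors' deposited tables. C8A, a pore-forming chain, was lower with sorafenib and both drugs in Hep3B (-0.99 and -0.83) and in the Huh7 groups labelled GW3965 and both (-0.59 and -1.76, edgeR FDR = 3.74e-15 for the last), and not called at -0.08 with GW3965 in Hep3B or -0.35 in the Huh7 group labelled sorafenib, in the authors' deposited tables. Its neighbour C8B was called only in the Huh7 group labelled GW3965, higher (0.93, edgeR FDR = 0.00182), and C8G and C9 in none of the authors' deposited tables. C8B averaged only 0.934 CPM in that comparison. C5 changed little, with a call only for both drugs in Hep3B (-0.25, edgeR FDR = 0.0202) and values between -0.07 and 0.16 in the other authors' deposited tables.

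Vitronectin (VTN), which keeps the pore out of membranes and also binds clot proteins, rose with sorafenib in Hep3B from 293 to 451 CPM (0.62, edgeR FDR = 4.39e-09) and was higher in the Huh7 groups labelled GW3965 (0.57) and both (0.65, edgeR FDR = 7.22e-14), in the authors' deposited tables. Its values with GW3965 (-0.04) and both drugs (-0.18) in Hep3B and in the Huh7 group labelled sorafenib (0.07) were not called in the authors' deposited tables.

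Factor I, C1 inhibitor and the chains of C4b-binding protein, soluble regulators of complement, fell with both drugs in Hep3B. Factor I (CFI), which cuts C3b and C4b, went from 49.5 to 11.9 CPM (log2 fold change -2.06, approximate 95% interval -2.24 to -1.87, edgeR FDR = 3.45e-99), and was also lower with GW3965 (-0.32) and sorafenib (-0.74), in the authors' deposited tables. In Huh7, CFI was higher in the group labelled GW3965 (0.84, edgeR FDR = 1.49e-06) and not called in the groups labelled sorafenib (0.01) and both (-0.21), in the authors' deposited tables. C1 inhibitor (SERPING1), which restrains C1, the MASPs and the contact proteases, rose with sorafenib (0.52, edgeR FDR = 7.43e-05) and fell with both drugs (-0.92, edgeR FDR = 3.15e-18) in Hep3B, with -0.16 for GW3965, not called, in the authors' deposited tables. The Huh7 group labelled GW3965 went from 149 to 261 CPM for SERPING1 (0.81, edgeR FDR = 2.10e-22), and the groups labelled sorafenib (0.08) and both (-0.01) were not called, in the authors' deposited tables.

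The alpha and beta chains of C4b-binding protein, C4BPA and C4BPB, are neighbours that parted in Huh7. C4BPA was lower with sorafenib (-0.86) and both drugs (-0.73) in Hep3B and in the Huh7 groups labelled GW3965 (-0.47, edgeR FDR = 0.00942) and both (-0.998, edgeR FDR = 2.33e-10), in the authors' deposited tables. C4BPB was lower with GW3965 (-0.62) and both drugs (-0.77) in Hep3B but higher in the Huh7 group labelled GW3965 (0.73, edgeR FDR = 1.72e-05), in the authors' deposited tables. Not called were -0.31 with GW3965 in Hep3B and -0.22 in the Huh7 group labelled sorafenib for C4BPA, and -0.18 with sorafenib in Hep3B and -0.18 and 0.05 in the Huh7 groups labelled sorafenib and both for C4BPB, in the authors' deposited tables.

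Whether the combination differed from each single treatment was tested on the fold changes themselves. The standard error of each was approximated from its p-value, and differences were tested by a 2-sided normal approximation with Benjamini-Hochberg adjustment over genes with a mean of at least 2 CPM. The tables of a line share their DMSO libraries, which makes these errors too large. Against sorafenib alone in Hep3B, both drugs gave lower values for 17 of 33 tested members and higher values for 0, where 31.1% of all tested genes differed (16.6% higher, 14.5% lower). The median difference was -0.56 (log2) for the members and 0.04 for all tested genes. The largest falls over all tested members were those of C6 (-1.85, interval -2.43 to -1.28, adjusted p = 1.50e-08), SERPING1 (-1.44, adjusted p = 2.61e-17), C1S (-1.41, adjusted p = 1.38e-07) and KNG1 (-1.40, adjusted p = 7.08e-08). In the authors' deposited tables, 7 members were higher with sorafenib and lower with both drugs in Hep3B, namely SERPING1, C1S, SERPINF2, PROC, KNG1, C6 and F12. These 7 were picked by their calls, so their differences in the same tables are a description. How many of all genes changed sign in this way was not counted, so the 7 are not shown to be particular to the members. At an unadjusted p under 0.05 the number of higher members by this test was also 0, and the highest difference was that of C8B at 0.31 (interval -0.28 to 0.90).

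Against GW3965 alone in Hep3B, 2 of 31 tested members were higher with both drugs and 14 lower, beside 63.9% of all tested genes (30.7% higher, 33.2% lower). The higher ones were MASP1 (1.60, adjusted p = 5.38e-28) and FGG (1.40, adjusted p = 2.13e-06), and CPB2 (-2.80, adjusted p = 2.32e-39) and SERPIND1 (-1.89, adjusted p = 2.14e-28) were lowest. In Huh7, both drugs against the group labelled GW3965 gave 1 higher and 19 lower of 36 tested members, beside 30.0% of all tested genes (20.4% higher, 9.61% lower). The median difference was -0.54 for the members and 0.11 for all tested genes. MBL2 (-2.37, adjusted p = 1.39e-12), CPB2 (-2.17, adjusted p = 3.58e-11) and F13B (-1.78, adjusted p = 2.81e-12) fell furthest, all 3 fibrinogen chains were lower (FGA -1.59, FGB -1.03, FGG -1.36), and F3 was the higher one (0.67, adjusted p = 0.00566). Against the Huh7 group labelled sorafenib, 7 of 35 tested members were higher and 11 lower with both drugs, beside 47.1% of all tested genes (29.1% higher, 18.0% lower). CPB2 (-2.51) and MBL2 (-2.05) were again lowest, F3 (1.02, adjusted p = 2.47e-06) and VTN (0.58, adjusted p = 2.26e-06) highest, and FGB (0.03, interval -0.22 to 0.27) and FGG (-0.14, interval -0.36 to 0.07) did not pass.

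The lines share no libraries, so their responses to both drugs were compared directly. Of the 28 members lower in Hep3B with both drugs, 15 (53.6%) were also lower in Huh7, which is 83.3% of the 18 lower there, in the authors' deposited tables. Over all genes, 48.7% of those lower in Hep3B with both drugs were lower in Huh7, which is 66.5% of those lower there, in the authors' deposited tables. The 15 members were F2, PROS1, PROZ, F11, KNG1, FGA, F13B, SERPIND1, TFPI, SERPINF2 and CPB2 of coagulation and MASP2, MBL2, C8A and C4BPA of complement. SERPINC1 and F10 were higher in both lines, MASP1 and FGG higher in Hep3B and lower in Huh7, and F3, PROC and C6 lower in Hep3B and higher in Huh7, in the authors' deposited tables. SERPINC1 and F10 made up 50% of the 4 members higher in Hep3B and 16.7% of the 12 higher in Huh7. The same shares over all genes were 58.5% and 62.4%, in the authors' deposited tables. By the approximate test, the both-drug log2 fold change differed between the lines for 23 of 34 tested members, 5 higher and 18 lower in Hep3B, beside 44.0% of all tested genes (17.7% higher, 26.3% lower). The largest differences, Hep3B minus Huh7, were those of C6 (-2.50, interval -3.07 to -1.93), MASP1 (2.38, interval 1.89 to 2.87), SERPINC1 (2.35, interval 1.66 to 3.04) and CFI (-1.85, interval -2.27 to -1.42). C6 was at 0.905 CPM in Huh7 with DMSO and SERPINC1 at 0.589 CPM in Hep3B, so both reached the minimum of 2 CPM through the line or treatment with the higher level. MBL2 averaged 1.31 CPM in the Hep3B comparison and 3.96 CPM in the Huh7 one, so it reached the minimum through Huh7. CPB2 (-0.31, interval -0.92 to 0.30) and MBL2 (-0.31, interval -0.99 to 0.36) did not pass the test, and their intervals still allow a difference of up to 0.92 and 0.99 (log2) toward a lower Hep3B value. The median difference was -0.46 for the members and -0.05 for all tested genes.

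**Figure D5:**
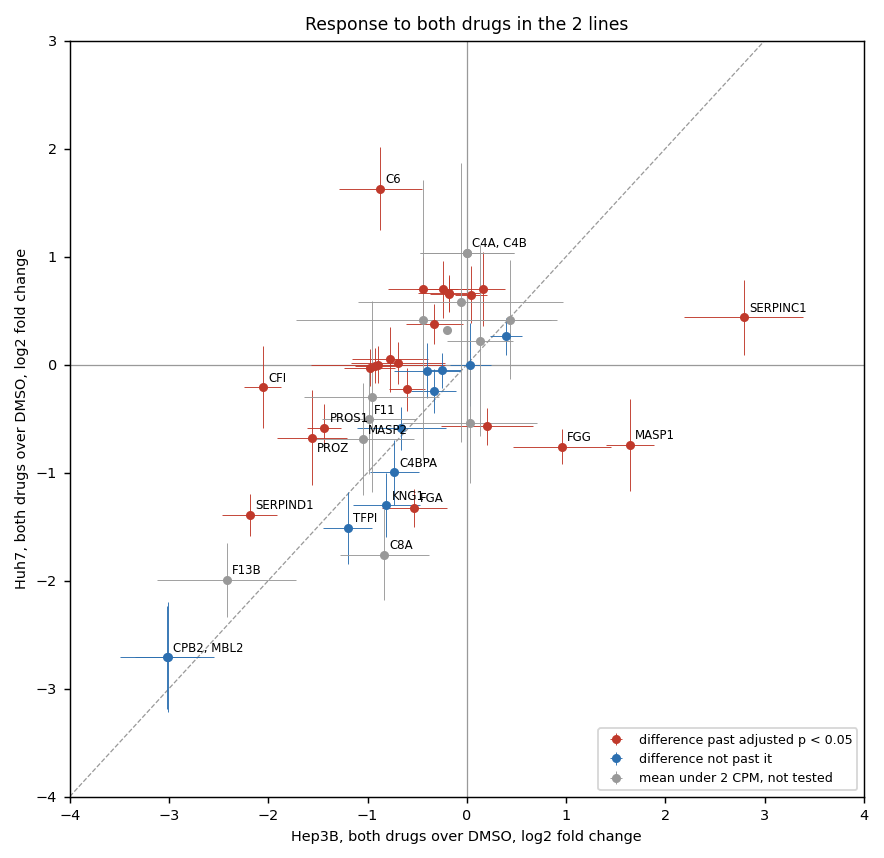
The horizontal axis gives the log2 fold change with both drugs in Hep3B and the vertical axis that in Huh7 for each member, with approximate 95% intervals as bars and the dashed line marking equal values. CPB2 and MBL2 lie near the dashed line at the lower left, and C6, CFI, FGG, MASP1 and SERPINC1 lie far from it.

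Since the label-checking genes went against the Huh7 single-drug labels, the crosswise pairs were also set side by side. Of the 16 members higher with sorafenib in Hep3B, 14 (87.5%) were higher in the Huh7 group labelled GW3965, 63.6% of the 22 higher there, in the authors' deposited tables. Over all genes this overlap was 29.7% of those higher with sorafenib in Hep3B and 56.3% of those higher in the Huh7 group, in the authors' deposited tables. The 14 members were SERPINC1, SERPING1, C1S, C1R, F7, F10, SERPINF2, VTN, KNG1, FGB, FGG, C6, F12 and C2. In the group labelled sorafenib, where 1 member was higher in all, the 16 included 0 higher calls, and MASP1, FGB and FGG were lower, in the authors' deposited tables. Of the 11 members lower with sorafenib in Hep3B, 4 (36.4%) were lower in the Huh7 group labelled GW3965, 80% of the 5 lower there. CFI was higher and 6 were not called. The same shares over all genes were 36.2% and 55.7%, in the authors' deposited tables. Responses of Hep3B to sorafenib and of the Huh7 group labelled GW3965 differed by the approximate test for 16 of 35 tested members, 3 higher and 13 lower in Hep3B, beside 19.4% of all tested genes. SERPINC1 (2.20, adjusted p = 2.66e-07), MASP1 (1.83, adjusted p = 8.81e-23) and FGG (0.65, adjusted p = 0.00885) were the higher ones, and MBL2 (-1.68) and CFI (-1.58) the lowest. With DMSO in Hep3B, SERPINC1 was at 0.589 CPM, so it reached the minimum of 2 CPM through the line or treatment with the higher level. MBL2 averaged 1.54 CPM in the Hep3B comparison and 6.36 CPM in the Huh7 one, so it reached the minimum through Huh7. Hep3B with GW3965 and the Huh7 group labelled sorafenib differed for 2 of 35 members, F10 (0.39, adjusted p = 0.0157) and MASP1 (0.36, adjusted p = 0.0279), beside 1.73% of all tested genes, and SERPIND1, FGA and FGG were lower in both of these authors' deposited tables. These crosswise contrasts were added once the data were known.

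What the members share beyond their function was read from sequence and position. RefSeq held a 250-base upstream window for 37 members. The C/EBP motif TTGCNNAA was found, on either strand, in 10 of these 37 and in 9.05% of all 35116 promoters, and the STAT3 motif TTCNNNGAA in 12 of 37 and in 6.57% of all. A member counted if any of its starts matched, and the 37 had 47 windows. The percentages count single promoters, so the member counts and percentages are in unlike units and show no excess by themselves. The C/EBP windows were those of C1R, C6, CPB2, FGA, FGB, KLKB1, KNG1, MBL2, PROC and VTN. Under the combination in Hep3B, 7 of these 10 were lower and 0 higher, beside 24 lower and 3 higher of the 37, in the authors' deposited table. Under the combination in Huh7 the 10 gave 5 lower and 3 higher, beside 17 and 8 of the 37, in the authors' deposited table. With sorafenib in Hep3B, 6 of the 10 were higher and 2 lower, beside 12 and 10 of the 37, in the authors' deposited table. Of the 12 genes with the STAT3 letters, 7 were lower and 1 higher with both drugs in Hep3B, and 5 lower and 3 higher in Huh7, in the authors' deposited tables. Those 12 gave 3 higher and 3 lower with sorafenib in Hep3B, and 6 higher and 1 lower in the Huh7 group labelled GW3965, beside 17 and 5 of the 37, in the authors' deposited tables. The full consensus of an HNF1 site, of the nuclear receptor direct repeats DR1 and DR4 (the LXR type) and the ATF4/CHOP letters TGATGNAAT, on either strand, were in 0 of the 37 members, and in at most 0.888% of all promoters. The absence of those exact letters says nothing of the factors.

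Several members are immediate neighbours in RefSeq's gene order, and neighbours did not always move together. C8A and C8B on chromosome 1 had opposite calls in the Huh7 group labelled GW3965 (-0.59 and 0.93), as did C4BPA and C4BPB (-0.47 and 0.73), also on chromosome 1, in the authors' deposited table. C8B averaged only 0.934 CPM there, so its call rests on few counts. F7 and F10 on chromosome 13 were both higher with sorafenib in Hep3B, whereas PROZ, 1 gene further, was lower (0.86, 0.32 and -0.55), in the authors' deposited table. C1S and C1R on chromosome 12 were both higher there (1.01 and 0.42) in the authors' deposited table. The tables list 72 transcripts for the 47 genes, and 17 genes had more than 1. Transcripts of a gene gave opposite calls for none of these 17 in any of the authors' deposited tables, and the widest ranges of log2 fold change were 0.74 for MASP2, 0.57 for PLG and 0.35 for MASP1.

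A further list of 51 coagulation and complement genes was examined, of which 44 were in the tables (receptors, activators, membrane regulators and processing enzymes). SERPINA1 and VWF of this list are also among the cell type markers. Calls in Hep3B numbered 4 higher and 2 lower for GW3965, 10 and 9 for sorafenib and 11 and 15 for the combination, and 5 and 4, 1 and 0, and 8 and 14 in the Huh7 groups labelled GW3965, sorafenib and both, in the authors' deposited tables. Beside these counts of 44, the shares of all genes called were 6.79%, 34.7% and 49.6% in the Hep3B tables and 20.4%, 2.05% and 41.6% in the Huh7 tables, in the same order, in the authors' deposited tables. The membrane regulators of complement diverged: CD55, which dissolves convertases, rose with both drugs in Hep3B (2.82) and Huh7 (2.18), while CD46, a cofactor of CFI, fell in both (-1.09 and -0.35), in the authors' deposited tables. CD59, which blocks the pore, fell with both drugs in Hep3B (-1.37) and was not called in Huh7 (0.07) in the authors' deposited tables. The protease-activated receptor F2RL1 rose with both drugs in Huh7 (2.69) and in Hep3B (0.49), and the plasminogen activator gene PLAU fell in both (-0.70 and -1.23), in the authors' deposited tables. GGCX, the carboxylase of the vitamin K-dependent proteins, was lower with both drugs in Hep3B (-0.42) and Huh7 (-0.59) in the authors' deposited tables.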

How the data were processed

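Poly-A RNA libraries of 2 lines and 4 treatments were grouped by their labels. The authors compared each drug group with DMSO of the same line by edgeR (version not given in the sources used here), on hg19 and GRCh37 per the submitters' processing notes. Aligner, counting and normalization: not given in the sources used here. For each of 32321 transcripts the authors deposited, per the file headers, the mean log2 CPM, the log2 fold change, the unadjusted p-value and the FDR, and they marked 1 transcript to stand for a gene. No columns of single libraries were used, so depth and its precision are unknown. The sign of the fold change was checked: read as drug over DMSO, the DMSO level implied by tables of the same line varied by an SD of 0.011 to 0.019 (log2), against 0.35 to 0.74 in the reverse reading.

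A member was called at the authors' FDR under 0.05. DMSO and drug levels were computed from the mean and the fold change, and divided by GENCODE v29 transcript lengths where given. Differences between fold changes used an approximate standard error, the fold change over the normal score of its p-value, with the median of 20 expression bins taken where p exceeded 0.5 and used as a floor. Benjamini-Hochberg adjustment ran over all genes with a mean of at least 2 CPM. Values in all tables are printed for up to 4 members per role with the largest called changes at 2 CPM or more, and other members are given by their calls. The members and lists were chosen with earlier results of these data known. Alternatives were a stricter threshold, other adjustment families, other transcripts, centring, a 1.5-fold minimum, no CPM minimum and other standard errors. Python 3.11.15, numpy 2.4.6, pandas 2.3.3, scipy 1.17.1 and matplotlib 3.10.9 were used.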

Additional observations from a re-analysis of the deposited data

Results flagged for a closer look

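The response to both drugs differed between the lines for 23 of 34 tested members by the approximate test of the difference, at an adjusted p under 0.05 over all tested genes. Values are the log2 fold change with both drugs in Hep3B minus that in Huh7. Among clotting factors and their regulators, the differences were -1.14 for F3, -0.95 for F5, -0.54 for F7, -0.70 for F12, -0.70 for PROC, -0.86 for PROS1 and -0.89 for PROZ. The inhibitors and lysis genes differed by 2.35 for SERPINC1, -0.80 for SERPIND1, -0.89 for PLG and -0.38 for A2M. The fibrinogen chains differed by 0.80 for FGA, 0.78 for FGB and 1.72 for FGG. Among complement genes the differences were 2.38 for MASP1, -0.61 for C2, -0.84 for C3, -0.94 for CFB, -2.50 for C6 and -0.83 for VTN. The complement regulators differed by -1.85 for CFI, -0.91 for SERPING1 and -0.82 for C4BPB. SERPINC1 and PLG were under 1 CPM in Hep3B with DMSO and C6 was under 1 CPM in Huh7 with DMSO, so their folds in those lines rest on few counts.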

How the results depend on the processing

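No call of a member changed direction under any alternative that was run. Only the choice of another transcript and the centring alter a fold change, so the other alternatives could not change a direction. The transcript choice could not either, as the marked transcript already had the highest or tied mean CPM for every member but SERPING1. The log2 fold changes of the SERPING1 transcripts differed by at most 0.00042 in a table. With a change of at least 1.5-fold also required, the members called fell from 10 to 2 for Hep3B with GW3965, from 27 to 15 for the Huh7 group labelled GW3965 and from 7 to 4 for the group labelled sorafenib, since this alternative drops small changes by construction. With no minimum CPM, differing members went from 16 to 25 for Hep3B both drugs against GW3965 and from 2 to 7 for Hep3B with GW3965 against the Huh7 group labelled sorafenib. The last count was 0 at an adjusted p under 0.01. The cause was not tested. An FDR under 0.01 left 266 of the 282 single values (47 members in 6 tables) on the same side of the threshold, and 16 were no longer called. Subtracting the median of genes at 2 CPM or more (0.07 for Huh7 with both drugs) moved values by too little to change the direction of a call. Leaving out single libraries was not run, for lack of values per library. No paired analysis was possible because the tables hold no values of single libraries, so the replicate numbers could not be used as a block. The unknown depth limits members under 2 CPM most.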
